A study of Mus musculus with 9 samples.

Results

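Inhibitory receptors of myeloid cells and their close relatives were examined in the brains of PG9VN, PG9V and WT mice. The 7 genes, taken by symbol from the table of estimated counts, were Lilrb4a, Lilr4b, Pirb, Cd300a, Cd300lf, Cd33 and Sirpa, out of 33641 genes. They had been picked with results of these same libraries known, so their levels, the differences between genotypes and the calls of the fit over all genes are given as a description, and no p-value of a member is used as support. All 7 passed the filter on low counts that left 17398 genes for testing.

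The libraries came from 3 PG9VN, 3 PG9V and 3 WT mice, untreated and aged 7.5 months, with a separate animal behind each library. Each was poly(A) RNA from a block of brain that held the thalamus, the hypothalamus and the midbrain, sequenced from a stranded library. The labels name the genotypes by these codes. As background from knowledge of the lines, both mutants lack progranulin (Grn), a lysosomal and secreted glycoprotein; the alleles that separate PG9VN from PG9V are not described here. Sex, strain and litter are not among the labels, and p-values cover the spread between these mice. With whole tissue, more cells of a type cannot be told apart from more RNA per cell.

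Receptors of this kind sit on microglia, macrophages and other leukocytes. Most carry short tyrosine motifs in the cell that, once phosphorylated by Src-family kinases, recruit the phosphatases encoded by Ptpn6, Ptpn11 and Inpp5d, which damp signals from activating receptors. Their ligands include MHC class I, sialic acid, lipids exposed on dying cells and the "don't eat me" protein Cd47. Activating relatives with nearly the same outer part often sit beside them in the genome and signal through the adaptors encoded by Tyrobp and Fcer1g.

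The sequences of 2 pairs show what the counting had to separate and what lies at the start of 2 of the genes. Lilrb4a (also known as gp49B), which bears inhibitory motifs, and Lilr4b (gp49A), which lacks the inhibitory tail, are neighbours on mouse chromosome 10. Their coding sequences, of 1005 and 909 bases, were identical at 871 of 907 aligned bases (96.0%). The first 90 coding bases are shown because so few bases tell the genes apart there, with capitals at the 2 bases that differ (GENCODE transcripts of build GRCm38).
Lilrb4a: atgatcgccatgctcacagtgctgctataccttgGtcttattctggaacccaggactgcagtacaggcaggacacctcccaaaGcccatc
Lilr4b: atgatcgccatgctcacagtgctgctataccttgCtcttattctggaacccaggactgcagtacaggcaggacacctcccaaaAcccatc

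The promoters of Pirb (chr7:3720333-3720632, minus strand) and Cd300lf (chr11:115133943-115134242, minus strand) are from RefSeq, build GRCm38.p6, and run from 250 bases before the start site to 50 after it. They are shown because they were the only 2 of the 5 member promoters in that table with the word GAGGAAGT, in capitals, a form of the site of PU.1, the myeloid transcription factor.
Pirb: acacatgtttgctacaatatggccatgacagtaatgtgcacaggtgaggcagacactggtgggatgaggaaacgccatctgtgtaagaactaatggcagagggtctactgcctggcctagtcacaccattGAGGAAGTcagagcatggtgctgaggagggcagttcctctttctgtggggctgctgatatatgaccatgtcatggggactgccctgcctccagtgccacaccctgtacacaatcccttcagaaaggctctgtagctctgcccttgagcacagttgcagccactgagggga
Cd300lf: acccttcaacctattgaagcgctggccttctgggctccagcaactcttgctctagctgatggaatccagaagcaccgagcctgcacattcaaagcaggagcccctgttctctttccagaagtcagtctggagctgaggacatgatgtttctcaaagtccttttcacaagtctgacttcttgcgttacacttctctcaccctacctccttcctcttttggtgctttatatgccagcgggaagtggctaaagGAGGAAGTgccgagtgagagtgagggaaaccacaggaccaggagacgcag

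The word began at base -120 of Pirb, counted from the start site, and at base 1 of Cd300lf. On either strand, GAGGAAGT was in 3.20% of 32851 promoters of the same length. Its shorter core GAGGAA, which every GAGGAAGT contains, was in 4 of the 5 member promoters (Pirb, Cd33, Cd300a and Cd300lf) and in 28.3% of all. The AP-1 word TGANTCA was in 0 of 5, against 7.81% of all promoters, and the E-box word CACGTG in 0 of 5, against 7.15%. A match is a description of these letters and shows no binding.

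Total estimated counts were 27150311 to 35349014 per library, so that 3 counts equal 0.085 to 0.110 CPM, the counts scaled to a common library size. Grn, the check of the labels, averaged 4.17 ± 0.567 CPM in PG9VN, 3.89 ± 1.15 CPM in PG9V and 50.1 ± 4.77 CPM in WT (SD, n = 3 each), and the mutants did not overlap WT. PG9VN replicate 2 stood apart in its tissue: its summed hypothalamic neuropeptides were at 5.05 CPM, against 348 and 510 CPM in the other PG9VN libraries, and its cortex and hippocampus markers at 1591 CPM, against 294 and 343 CPM. Thalamus markers summed to 230 to 415 CPM in PG9VN, 503 to 611 CPM in PG9V and 707 to 792 CPM in WT, and the part of the dissected region in the members' levels was not tested. The Y-linked gene Ddx3y was nearly absent from PG9V replicate 2 (8 counts) and WT replicate 1 (13 counts), against at least 1173 counts in the other libraries.

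The gp49 pair showed the widest gaps between the genotypes. Lilrb4a stood at 71.0, 74.3 and 77.1 CPM in PG9VN, at 14.9, 29.7 and 12.6 CPM in PG9V, and at 0.623, 0.575 and 1.0 CPM in WT. The WT values rest on 18, 17 and 36 estimated counts, and no library of one genotype reached the range of another. PG9V replicate 2 had about the level of the other 2 PG9V libraries added together. The fitted log2 fold change was 6.63 ± 0.40 for PG9VN against WT (98.8-fold), 4.67 ± 0.38 for PG9V against WT and 1.96 ± 0.30 for PG9VN against PG9V (SE).

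Lilr4b stood at 34.2, 43.6 and 36.4 CPM in PG9VN, at 5.22, 11.0 and 5.04 CPM in PG9V, and at 0.381, 0.339 and 0.251 CPM in WT. In WT this was 9 to 11 estimated counts a library. Again the 3 genotypes did not overlap, and PG9V replicate 2 was the highest of its group. The log2 fold changes were 6.88 ± 0.39, 4.45 ± 0.39 and 2.42 ± 0.29 in the same order of comparisons.

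How the counts were split between the gp49 genes is uncertain. Of the 31-base words in Lilrb4a transcripts 39.0% also occurred in Lilr4b, and of those in Lilr4b transcripts 37.2% occurred in Lilrb4a. The Lilrb4a transcripts here include 3 that span both genes, so Lilr4b sequence within them counts as shared. Summed, the pair had 2925, 3194 and 3261 counts in PG9VN, 566, 1228 and 554 counts in PG9V, and 29, 27 and 45 counts in WT. The log2 fold changes of the sum, 6.71 ± 0.37, 4.61 ± 0.35 and 2.10 ± 0.28, do not depend on that split. Transcripts that span both genes held on average 22.2% of the Lilrb4a counts in PG9VN, 23.7% in PG9V and 17.8% in WT. The WT share rests on few counts and ran from 0% to 37.4% over the libraries. Leaving out these 3 transcripts gave log2 fold changes of 6.64 ± 0.41, 4.67 ± 0.39 and 1.97 ± 0.30.

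Pirb, a receptor for MHC class I that also binds the myelin proteins encoded by Rtn4, Mag and Omg, stood at 7.44, 10.9 and 12.4 CPM in PG9VN, at 3.73, 5.47 and 3.96 CPM in PG9V, and at 0.935, 1.29 and 1.26 CPM in WT. The genotypes did not overlap. The log2 fold changes were 3.13 ± 0.26 for PG9VN against WT, 1.91 ± 0.25 for PG9V against WT and 1.22 ± 0.23 for PG9VN against PG9V.

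Both CD300 members, which recognise lipids such as phosphatidylserine, were measured apart from their relatives, sharing 4.19% (Cd300lf) and 6.83% (Cd300a) of their 31-base words with other genes. Cd300lf stood at 25.2, 22.5 and 25.3 CPM in PG9VN, at 5.26, 7.92 and 4.66 CPM in PG9V, and at 1.45, 2.67 and 1.62 CPM in WT. The 3 ranges were apart, with the lowest PG9V library at 4.66 CPM and the highest WT library at 2.67 CPM. Its log2 fold changes were 3.67 ± 0.27, 1.64 ± 0.26 and 2.03 ± 0.25.

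Cd300a had a narrower spread, with 10.6, 11.3 and 11.9 CPM in PG9VN, 5.33, 6.90 and 7.31 CPM in PG9V, and 4.05, 4.33 and 3.63 CPM in WT. The ranges did not overlap, though PG9V and WT came within about 1 CPM of each other. The log2 fold changes were 1.49 ± 0.15, 0.70 ± 0.15 and 0.79 ± 0.15.

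Cd33, a sialic acid receptor whose human counterpart is tied to the risk of Alzheimer's disease, stood at 30.5, 28.1 and 34.5 CPM in PG9VN, at 20.5, 17.9 and 18.6 CPM in PG9V, and at 11.0, 7.38 and 9.65 CPM in WT. The groups did not overlap, and its words were nearly all its own (0.615% shared). The log2 fold changes were 1.73 ± 0.15, 1.02 ± 0.15 and 0.71 ± 0.14.

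Sirpa, the receptor for Cd47, is made by neurons as well as by phagocytes. It was the most abundant member and the one with the smallest differences, at 339, 433 and 383 CPM in PG9VN, 316, 295 and 310 CPM in PG9V, and 259, 286 and 268 CPM in WT. The ranges were apart but close: the lowest PG9V library was 295 CPM and the highest WT library 286 CPM. The log2 fold changes were 0.51 ± 0.10, 0.18 ± 0.10 and 0.33 ± 0.10. Summed neuron markers were at 4232 to 5755 CPM in PG9VN, 4844 to 5508 CPM in PG9V and 6066 to 6441 CPM in WT, and their part in the Sirpa values was not tested.

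**Figure D1:**
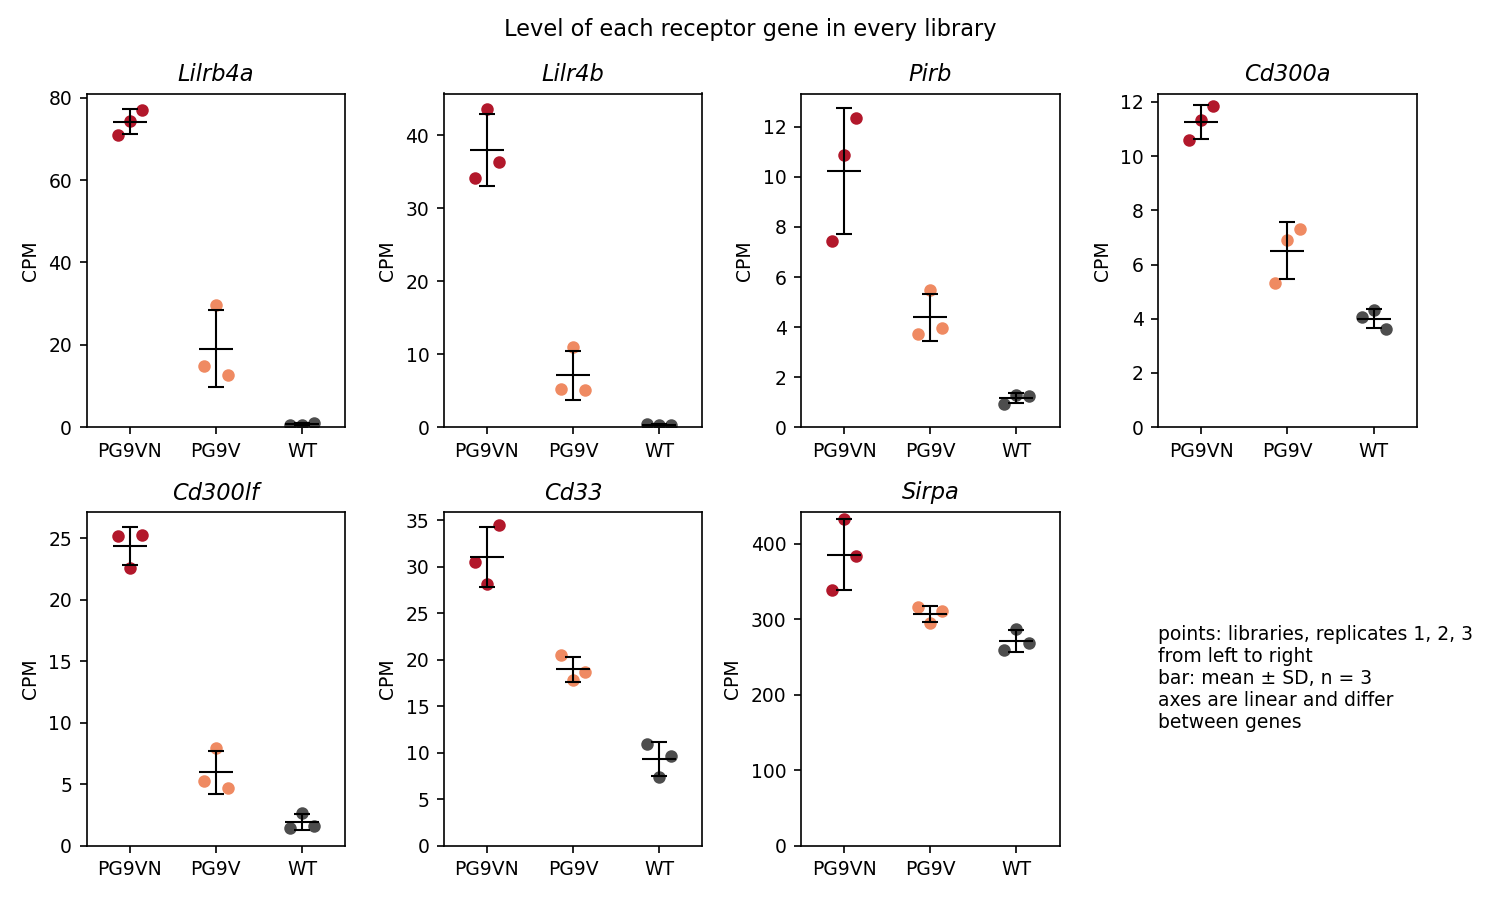
CPM of each receptor gene (vertical axis, linear, own scale for each gene) in PG9VN, PG9V and WT brains. Points are libraries and bars the mean ± SD (n = 3 each); in every panel the 3 genotypes occupy separate ranges, with PG9VN highest and WT lowest.

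As a count, 7 of the 7 members passed an adjusted p of 0.05 as higher in PG9VN than in WT (edgeR's quasi-likelihood test, Benjamini-Hochberg adjustment over all genes), where 11.5% of all genes tested were called higher. In PG9V against WT 5 of 7 passed as higher, all but Cd300a and Sirpa, against 1.62% of all genes. In PG9VN against PG9V 6 of 7 passed as higher, all but Sirpa, against 2.72% of all genes. The members' ranges were apart, with the first-named genotype higher, for 7 of 7 genes in each comparison, where this held for 20.3%, 16.5% and 12.2% of all genes. The median log2 fold change of the members was 3.13, 1.64 and 1.22, and that of all genes tested 0.017, 0.0097 and 0.0094. The members were chosen on such differences, so these shares are not evidence about them. The comparisons share libraries and are not independent.

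Some counts turned on single libraries. In PG9VN against PG9V no member passed in edgeR's test without PG9V replicate 1 or without PG9V replicate 3 (0 of 7 each, with 7 of 7 at an unadjusted p under 0.05 and no other tool run on those subsets), 2 passed without PG9VN replicate 3, and 4 passed without PG9V replicate 2, while the log2 fold changes kept their sign. In PG9V against WT 3 passed without WT replicate 3: Cd300lf did not pass without WT replicate 1, WT replicate 3 or PG9V replicate 2, nor Cd33 without WT replicate 3 or PG9V replicate 1, while Cd300a newly passed without PG9V replicate 1 or PG9VN replicate 2. Among the fits that left out 1 library, Cd33 passed in PG9VN against PG9V only without PG9VN replicate 2, WT replicate 1 or WT replicate 2. Sirpa did not pass in PG9VN against WT without WT replicate 1 (log2 fold change 0.47). Without PG9VN replicate 2, the library that stood apart, the log2 fold changes against WT were 6.62 for Lilrb4a, 6.77 for Lilr4b, 3.08 for Pirb, 1.49 for Cd300a, 3.72 for Cd300lf, 1.80 for Cd33 and 0.41 for Sirpa, and the number of members called stayed at 7. With the 2 libraries short of Ddx3y left out, 6, 3 and 3 members passed in the 3 comparisons.

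**Figure D2:**
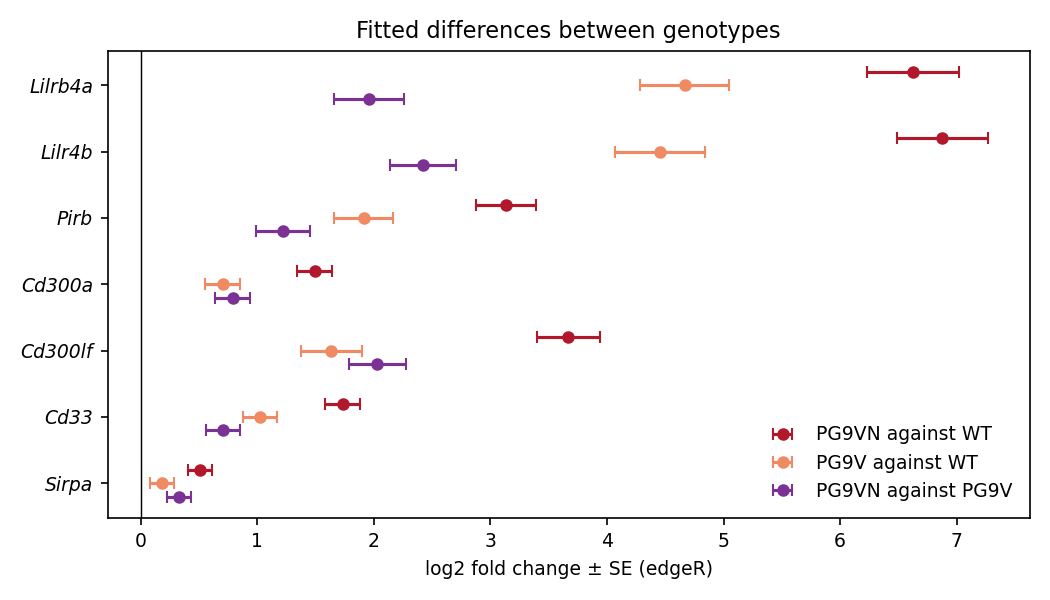
Fitted log2 fold change ± SE (horizontal axis) of each receptor gene in PG9VN against WT, PG9V against WT and PG9VN against PG9V. Lilrb4a and Lilr4b lie at 6.63 and 6.88 for PG9VN against WT, and Sirpa at 0.51.

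Levels of different genes were compared per transcript length, as TPM, a length-scaled share of all transcripts, and neighbours in the order are taken as apart when their 3 libraries do not overlap. In PG9VN the order was Sirpa at 232 ± 18.3 TPM, Lilrb4a at 92.3 ± 8.92, Lilr4b at 46.3 ± 4.08, Cd300lf at 25.1 ± 3.30, Cd33 at 16.2 ± 2.76, Pirb at 6.68 ± 2.04 and Cd300a at 5.03 ± 0.531 TPM (SD, n = 3). Only Pirb and Cd300a overlapped there. In PG9V it was Sirpa at 191 ± 17.4 TPM, Lilrb4a at 23.6 ± 10.8, Cd33 at 10.3 ± 1.11, Lilr4b at 8.71 ± 4.91, Cd300lf at 5.89 ± 1.32, Cd300a at 2.97 ± 0.645 and Pirb at 2.72 ± 0.463 TPM, with overlap between Cd33 and Lilr4b, Lilr4b and Cd300lf, and Cd300a and Pirb. In WT Sirpa was at 183 ± 12.2 TPM, Cd33 at 5.23 ± 0.657, Cd300lf at 2.04 ± 0.869, Cd300a at 1.94 ± 0.172, Lilrb4a at 0.850 ± 0.316, Pirb at 0.704 ± 0.106 and Lilr4b at 0.427 ± 0.124 TPM, with overlap between Cd300lf and Cd300a and between Lilrb4a and Pirb. Lilrb4a was thus at place 2 of 7 in both mutants and at place 5 in WT, and Lilr4b at place 3 in PG9VN, place 4 in PG9V and place 7 in WT.

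Within a genotype the members did not follow one order of mice. PG9V replicate 2 was the highest PG9V library for 4 of the 7 genes (Lilrb4a, Lilr4b, Pirb and Cd300lf) and the lowest for Cd33 and Sirpa. In PG9VN, replicate 3 was the highest for 5 genes and replicate 1 the lowest for 5. PG9V replicate 2 was one of the libraries nearly without Ddx3y, and the part of sex in its level was not tested.

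The nearest profiles were found among 14329 other genes as the root mean square difference of log2 CPM, each taken from its WT mean, over the 9 libraries. Lilrb4a was nearest to Lyz2 (0.327), which encodes lysozyme, Clec7a (0.453), a receptor for fungal glucans, and Lgals3 (0.460), a galectin. Lilr4b was nearest to Lgals3 (0.221), Lyz2 (0.344) and Clec7a (0.372). The distance between Lilrb4a and Lilr4b themselves was 0.392. Lyz2 was thus closer to Lilrb4a than Lilr4b was, and all 3 named genes were closer to Lilr4b than Lilrb4a was.

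Pirb was nearest to C3ar1 (0.237), the receptor for the complement fragment C3a, Hvcn1 (0.254), a proton channel, and Trem2 (0.276), an activating lipid receptor of microglia. Cd300lf was nearest to Slc15a3 (0.268), a lysosomal peptide transporter, Stra6l (0.297) and Vim (0.322), the filament protein vimentin. Cd300a was nearest to Abcc3 (0.108), an export pump, Tnfrsf1b (0.118), a TNF receptor, and Casp4 (0.129), an inflammatory caspase. Cd33 was nearest to Wdfy4 (0.128), Dock2 (0.139) and Lcp1 (0.168), genes of leukocytes. Sirpa was nearest to Hnrnpf (0.0367), an RNA-binding protein, Med25 (0.0518), a Mediator subunit, and Itm2c (0.0579). All these distances are on the log2 scale, and small ones come readily where a profile is nearly flat, as for Sirpa.

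Markers of microglia also differed between the genotypes. Of 12 markers chosen for abundance, 9 were higher in PG9VN than in WT, 4 in PG9V than in WT and 5 in PG9VN than in PG9V (edgeR, adjusted p under 0.05). Their summed level was 984 to 1249 CPM in PG9VN, 562 to 738 CPM in PG9V and 398 to 436 CPM in WT, and their mean log2 level lay 0.915, 1.18 and 1.01 above the WT mean in PG9VN, and 0.563, 0.618 and 0.332 above it in PG9V. Each member was therefore also expressed relative to the mean log2 level of these markers in the same library. On that scale the differences of PG9VN from WT were 5.60 for Lilrb4a, 5.71 for Lilr4b, 2.66 for Cd300lf, 2.06 for Pirb, 0.71 for Cd33, 0.46 for Cd300a and -0.53 for Sirpa, with no overlap between the 2 genotypes for any of the 7. The share of all genes without overlap was not computed on this scale, so overlap is given here and below as a description only.

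The differences of PG9V from WT on the same scale were 4.07 for Lilrb4a, 3.73 for Lilr4b, 1.38 for Pirb, 1.13 for Cd300lf and 0.53 for Cd33, all without overlap. For Cd300a (0.18) and Sirpa (-0.32) the PG9V and WT libraries overlapped. Between PG9VN and PG9V the differences were 1.98 for Lilr4b, 1.54 for Cd300lf, 1.53 for Lilrb4a, 0.68 for Pirb and -0.21 for Sirpa without overlap, and 0.27 for Cd300a and 0.18 for Cd33 with overlap. The Sirpa ranges nearly touched, with the highest PG9VN library at -0.498 and the lowest PG9V library at -0.495. Relative to the markers, then, Sirpa was lower in PG9VN than in the other genotypes, while its CPM was higher. The markers may themselves change per cell, so this is another scale and no count of cells. Neurons also make Sirpa, so its value on this scale is not a level per microglial cell. The part of each cell type in it was not tested.

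**Figure D3:**
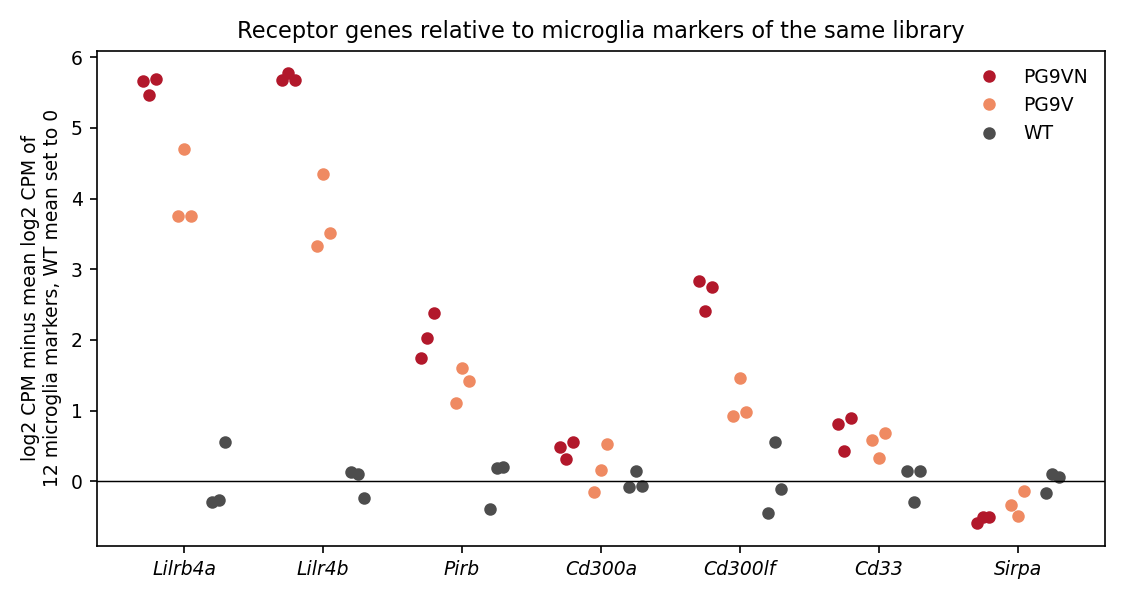
Log2 CPM of each receptor gene minus the mean log2 CPM of 12 microglia markers in the same library, with the WT mean set to 0 (vertical axis); points are libraries of PG9VN, PG9V and WT, left to right within each gene. Lilrb4a and Lilr4b lie 5.60 and 5.71 above WT in PG9VN, and Sirpa lies 0.53 below WT.

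Other cell types that can carry these receptors were followed by their markers. Those of border macrophages were at 25.9 to 35.5 CPM in PG9VN, 15.4 to 18.8 CPM in PG9V and 10.4 to 12.2 CPM in WT. In PG9VN against WT Ms4a7 rose and Lyve1 fell (log2 fold change -1.99 ± 0.38, adjusted p = 0.00704), and the median log2 fold change of the 7 was -0.23. Ms4a7 alone averaged 20.4 ± 4.10 CPM in PG9VN, 5.35 ± 3.08 CPM in PG9V and 0.611 ± 0.0577 CPM in WT (SD, n = 3 each). Without Ms4a7 the other 6 summed to 3.43 to 12.4 CPM in PG9VN, 9.88 to 14.0 CPM in PG9V and 9.74 to 11.5 CPM in WT, ranges that overlap. Monocyte and neutrophil markers summed to 7.56 to 9.64 CPM in PG9VN, 4.16 to 4.81 CPM in PG9V and 2.98 to 4.50 CPM in WT, with the neutrophil gene Ly6g at 3 or fewer counts in every library and 1 of the 3 tested higher in PG9VN than in WT. Mast cell markers were of interest because gp49 was first known from mast cells. They summed to 42.8 to 44.3 CPM in PG9VN, 35.1 to 64.4 CPM in PG9V and 37.5 to 55.4 CPM in WT. Only 2 of these 8 genes passed the filter on low counts, and Fcer1a, Mcpt4, Cma1 and Tpsb2 were at 3 or fewer counts in every library. The sum thus rests on few of the genes and is not read as a level of mast cells. The 7 T and NK cell markers summed to 6.97 to 20.0 CPM in PG9VN, 8.06 to 11.5 CPM in PG9V and 4.24 to 14.1 CPM in WT, which overlap. Their mean log2 level lay 0.52 to 0.73 above the WT mean in PG9VN, -0.10 to 0.29 from it in PG9V and -0.33 to 0.34 from it in WT. The NK cell gene Ncr1 was at 3 or fewer counts throughout, and the 4 that were tested had adjusted p-values of 0.0648 to 0.328 in PG9VN against WT (edgeR).

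B cell markers summed to 1.22 to 2.34 CPM in PG9VN, 2.59 to 5.18 CPM in PG9V and 2.17 to 5.75 CPM in WT, and in PG9VN against WT Cd79b rose (2.60 ± 0.50, adjusted p = 0.00796) and Pax5 fell (-3.15 ± 0.78, adjusted p = 0.0243). Dendritic cell markers summed to 16.3 to 21.1 CPM in PG9VN, 23.8 to 32.3 CPM in PG9V and 32.9 to 33.3 CPM in WT, with no overlap, and Flt3 fell in PG9VN against WT (-1.36 ± 0.15, adjusted p = 0.000414). Astrocyte markers summed to 6409 to 8066 CPM in PG9VN, 4864 to 5578 CPM in PG9V and 3573 to 3761 CPM in WT, and 4 of 6 rose in PG9VN against WT, Gfap by 3.57 ± 0.26 (adjusted p = 5.10e-05). The part of any of these cell types in the members' levels was not tested.

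Counts also differed in the kind of transcript they fell on. Transcripts annotated as retaining an intron held 65.4%, 74.9% and 83.5% of the Pirb counts in PG9VN, 63.8%, 53.4% and 38.4% in PG9V, and 16.3%, 10.4% and 9.59% in WT. The genotypes did not overlap. The only protein-coding Pirb transcript was at 2.57, 2.73 and 2.04 CPM in PG9VN, 1.36, 2.55 and 2.43 CPM in PG9V, and 0.772, 1.15 and 1.13 CPM in WT, so PG9VN and PG9V overlapped and both were above WT. Retained-intron transcripts of Pirb averaged 7.77 ± 2.75 CPM in PG9VN, 2.28 ± 0.708 CPM in PG9V and 0.134 ± 0.0156 CPM in WT (SD, n = 3 each).

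With the protein-coding Pirb transcript alone, the log2 fold changes were 1.26 ± 0.29 for PG9VN against WT, 1.05 ± 0.29 for PG9V against WT and 0.22 ± 0.28 for PG9VN against PG9V, against 3.13, 1.91 and 1.22 for the gene. Pirb shares 43.6% of its 31-base words with other genes: 23.7% with Gm14548, 23.1% with Lilra6, 23.1% with the activating relative Pira2, 20.6% with Gm15922 and 18.3% with Gm15448. Words found only in its retained-intron transcripts were shared with other genes in 37.0% of cases, and words found only in its protein-coding transcript in 15.1%. Summed with all 5 of these genes, the log2 fold changes were 3.42, 2.11 and 1.31. Whether the retained-intron counts came from Pirb or from its relatives cannot be told apart in estimated counts.

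Lilrb4a had 70.1% of its counts on retained-intron transcripts in PG9VN, 76.2% in PG9V and 77.7% in WT, and Lilr4b 75.0%, 78.6% and 91.1%, from few counts in WT. The protein-coding transcripts of Lilrb4a were at 17.9 ± 1.44 CPM in PG9VN, 4.12 ± 1.52 CPM in PG9V and 0.182 ± 0.164 CPM in WT. Most of this lay on a coding transcript that spans both gp49 genes. It stood at 16.4 ± 3.15 CPM in PG9VN, 4.08 ± 1.45 CPM in PG9V and 0.154 ± 0.193 CPM in WT. The Lilrb4a transcript whose first coding bases are shown above averaged 1.38 ± 2.39 CPM in PG9VN. Its PG9VN libraries ran from 0 to 4.13 CPM, and the highest of them alone accounted for that mean. That transcript was at 0 in each PG9V and WT library. The protein-coding transcripts of Lilr4b were at 2.99 ± 0.346 CPM in PG9VN and 0.522 ± 0.337 CPM in PG9V, and were listed at 0 in each WT library. Coding transcripts held 96.3%, 94.4% and 96.1% of the Cd33 counts in PG9VN, PG9V and WT, and 76.0%, 63.9% and 60.2% of the Cd300lf counts.

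**Figure D4:**
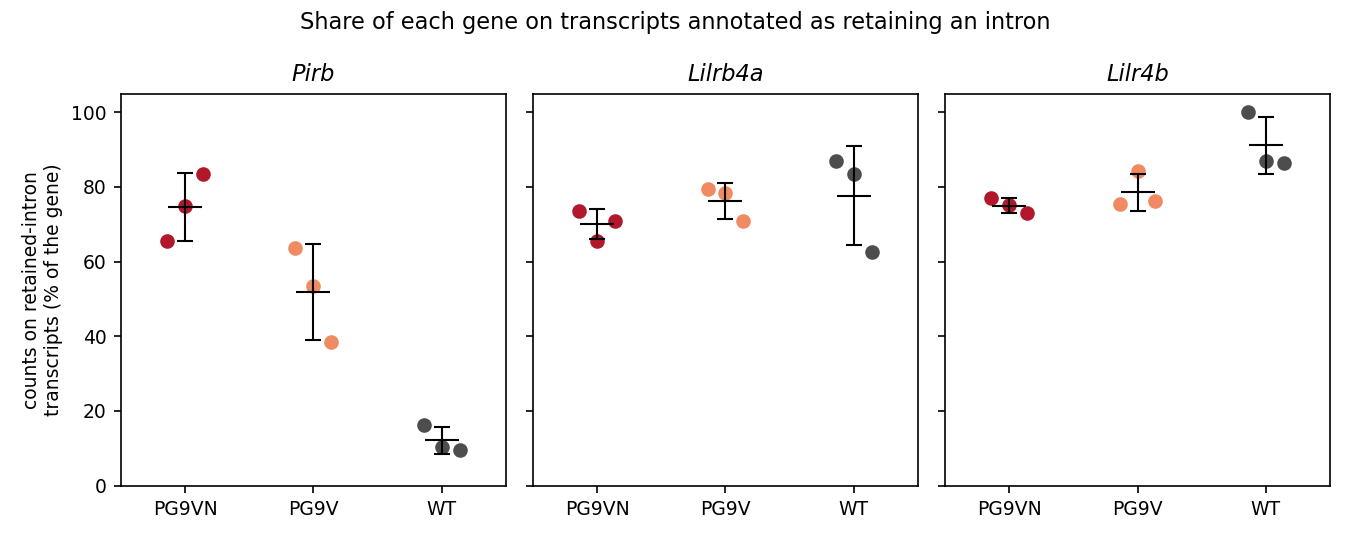
Percent of each gene's estimated counts on transcripts annotated as retaining an intron (vertical axis) for Pirb, Lilrb4a and Lilr4b in PG9VN, PG9V and WT. Points are libraries and bars the mean ± SD (n = 3 each); for Pirb the means are 74.6%, 51.8% and 12.1%, and the genotypes do not overlap.

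Genes that work with these receptors were followed through 8 lists of 82 symbols outside the members, of which 73 were in the table and 62 were tested. In PG9VN against WT 39 rose and 1 fell, beside 11.5% and 7.22% of all genes. The number that fell was 0 to 3 over the 15 alternatives run. In PG9V against WT 20 rose, beside 1.62%, and in PG9VN against PG9V 25 rose, beside 2.72% of all genes. None fell in the last 2 comparisons by edgeR (0 to 1 over the same alternatives), where 0.149% and 0.667% of all genes fell and where 2 and 1 of the 62 were lower at an unadjusted p under 0.05. The median log2 fold change of the 62 genes was 1.65, 0.70 and 0.75. The count for PG9V against WT dropped to 8 or 9 without PG9V replicate 1 or 2, and to 9, 7 and 5 without WT replicates 1, 2 and 3. The count for PG9VN against PG9V dropped to 1 without PG9V replicate 1 or 3 and to 5 without PG9VN replicate 3.

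Among relatives of the LILR and PIR receptors, Lilra5, an activating member, rose in PG9VN against WT (log2 fold change 2.17 ± 0.29, adjusted p = 0.00102) and in PG9V against WT (1.58 ± 0.29, adjusted p = 0.0305), where only the fits without PG9VN replicate 2 or PG9V replicate 3 kept the call among those that left out 1 library (adjusted p = 0.0286 to 0.142 over the 9). Pira2 rose in PG9VN against WT (adjusted p = 0.00340), with 28, 32 and 59 counts in PG9VN, 0, 12 and 7 counts in PG9V, and 1 count in each WT library. Its ratio of PG9VN to WT was 44.7, with a 95% exact interval of 14.9 to 220 that covers counting error only, and its counts share the uncertainty of Pirb.

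Other CD300 genes rose in PG9VN against WT in 4 of 5 tested, in PG9V against WT in 2 and in PG9VN against PG9V in 3. Cd300c2 (2.88 ± 0.26, adjusted p = 0.000131), Cd300ld3 (3.55 ± 0.33, adjusted p = 0.000159) and Cd300ld (3.56 ± 0.39, adjusted p = 0.000365) were 3 of the 4. Cd300lb had 36, 41 and 49 counts in PG9VN and 1, 2 and 0 counts in WT, a ratio of 47.3 with an exact 95% interval of 15.8 to 233 (counting error only). Cd300lf itself stood at 3.67 and Cd300a at 1.49 in this comparison, and no difference between the CD300 genes was tested.

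Of 5 other Siglecs 2 rose in PG9VN against WT: Cd22, an inhibitory receptor known mainly from B cells (3.74 ± 0.23, adjusted p = 2.94e-05), and Siglec1 (4.03 ± 0.41, adjusted p = 0.000311). Siglech, a marker of resting microglia, had a log2 fold change of 0.31 ± 0.16 (adjusted p = 0.220) and Siglecf one of 0.73 ± 0.30 (adjusted p = 0.123). The 3 Sirpb1 genes, activating relatives of Sirpa, were below the filter, with a summed level of 0.647 to 1.39 CPM in PG9VN, 0.213 to 0.543 CPM in PG9V and 0.0837 to 0.237 CPM in WT.

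Other inhibitory receptors of myeloid cells rose in 10 of 18 for PG9VN against WT (median log2 fold change 1.27), in 5 for PG9V against WT and in 5 for PG9VN against PG9V. Fcgr2b, the inhibitory Fc receptor, averaged 69.9 ± 2.85 CPM in PG9VN, 30.1 ± 7.42 CPM in PG9V and 4.41 ± 0.758 CPM in WT (SD, n = 3 each), a log2 fold change of 3.99 ± 0.20 for PG9VN against WT (adjusted p = 1.02e-05). Cd72 (3.07 ± 0.27, adjusted p = 0.000127), Havcr2, which encodes Tim-3 (2.16 ± 0.17, adjusted p = 7.38e-05), and the collagen receptor Lair1 (0.88 ± 0.10, adjusted p = 0.000435) also rose.

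Among ligands and their carriers 6 of 12 rose and 1 fell in PG9VN against WT. MHC class I, bound by Pirb, rose with H2-D1 (2.41 ± 0.16, adjusted p = 4.35e-05), H2-K1 (2.18 ± 0.17, adjusted p = 5.89e-05) and its light chain B2m (2.49 ± 0.19, adjusted p = 6.39e-05), as did Itgb3 (1.76 ± 0.15, adjusted p = 0.000110), a chain of the integrin bound by mouse gp49B. The gene that fell was Cd47, the ligand of Sirpa, named here after its value was seen, at 122 ± 7.46 CPM in PG9VN against 157 ± 11.4 CPM in WT (log2 fold change -0.36 ± 0.10, adjusted p = 0.0346). This call was lost in 4 of the 9 fits that left out 1 library (WT replicate 1, WT replicate 2, PG9VN replicate 3 or PG9V replicate 2), with no filter on low counts and with only 2 genotypes in the fit, at adjusted p-values of 0.0517 to 0.114 and log2 fold changes of -0.32 to -0.36. It was also lost with only the libraries that have Ddx3y counts (-0.34, adjusted p = 0.170). The myelin ligands of Pirb, named for that role, did not pass in this fit: the log2 fold change was -0.34 ± 0.10 for Rtn4, -0.01 ± 0.28 for Mag and -0.21 ± 0.11 for Omg. Rtn4 passed as lower by DESeq2, by limma-voom, with relative log expression size factors and without PG9VN replicate 2 (-0.34 to -0.44, adjusted p = 0.00402 to 0.0464). Omg also passed as lower without PG9VN replicate 2 (-0.33, adjusted p = 0.0176).

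Of 12 phosphatases and kinases of inhibitory signalling 7 rose in PG9VN against WT, 2 in PG9V against WT and 2 in PG9VN against PG9V. Ptpn6, the phosphatase most used by these receptors in blood cells, averaged 18.4 ± 2.64 CPM in PG9VN, 8.84 ± 1.69 CPM in PG9V and 3.30 ± 0.331 CPM in WT (2.48 ± 0.18 for PG9VN against WT, adjusted p = 5.51e-05). Inpp5d (1.34 ± 0.14, adjusted p = 0.000316) and the docking protein gene Dok1 (2.02 ± 0.29, adjusted p = 0.00166) rose too, while the widely expressed Ptpn11 stood at 0.27 ± 0.11 and did not pass.

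The activating side rose in 8 of 8 genes for PG9VN against WT, in 4 for PG9V against WT and in 8 for PG9VN against PG9V. Tyrobp averaged 139 ± 46.4 CPM in PG9VN, 48.6 ± 18.3 CPM in PG9V and 9.52 ± 1.03 CPM in WT, a log2 fold change of 3.87 ± 0.33 for PG9VN against WT (adjusted p = 0.000138). Fcer1g (3.65 ± 0.31, adjusted p = 0.000123) and Vav1, a signalling protein below these adaptors (2.08 ± 0.16, adjusted p = 5.89e-05), rose as well, and Hcst, another adaptor, had 29 to 49 counts in PG9VN against 3 in each WT library.

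**Figure D5:**
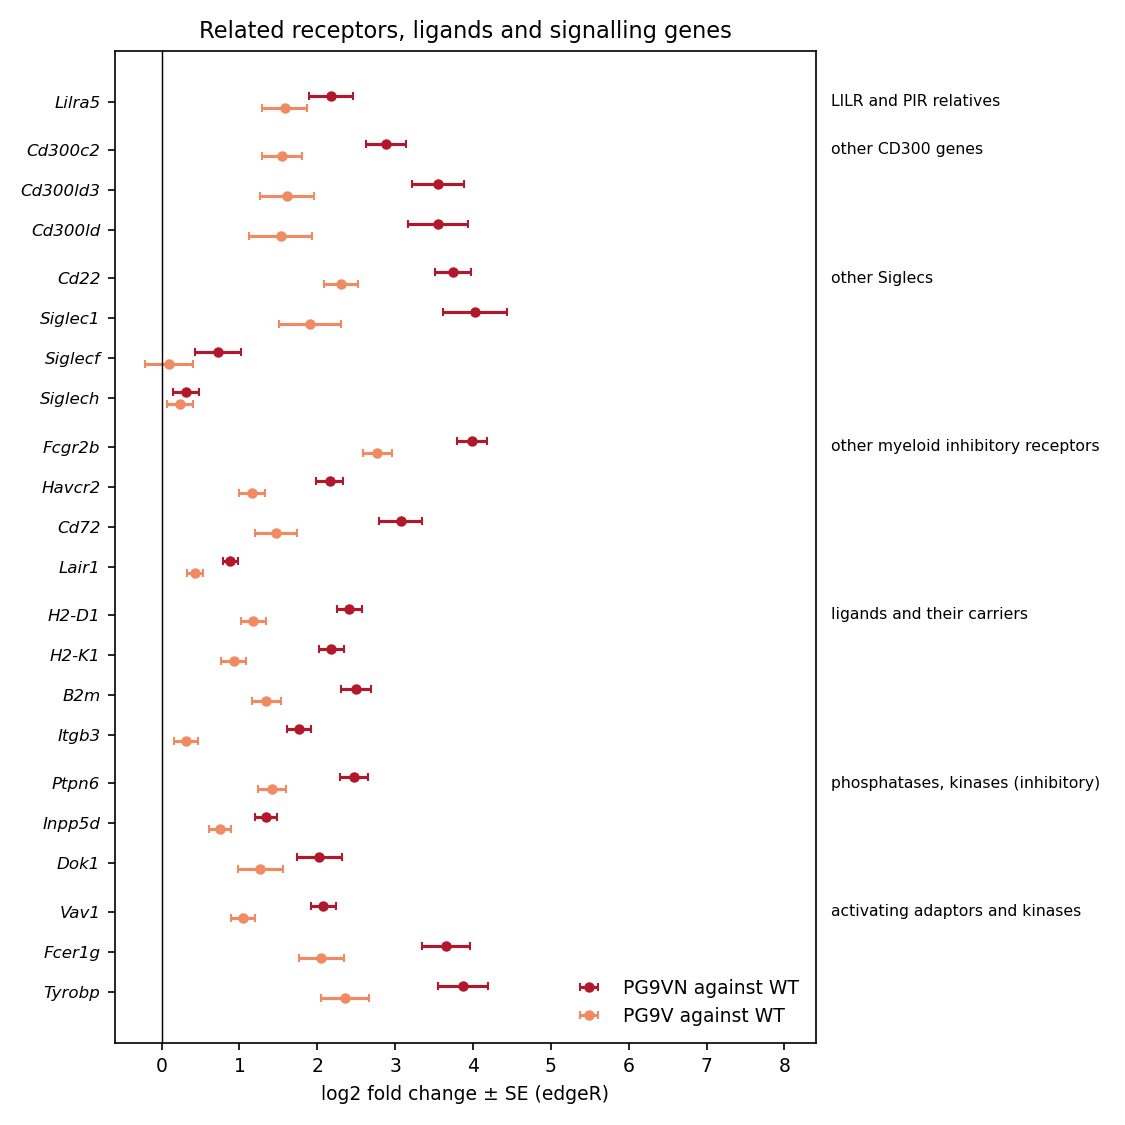
Log2 fold change ± SE (horizontal axis) of named related genes, grouped by list, in PG9VN against WT and PG9V against WT. Genes with 3 or fewer counts in every WT library are left out; Fcgr2b lies at 3.99 and Siglech at 0.31 for PG9VN against WT.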

How the data were processed

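Estimated counts for 105129 transcripts in 9 libraries were deposited by the authors, unscaled for depth or length, and 59.6% of values were not whole (tolerance 0.001). The submitters' processing notes name kallisto 0.43.1, HISAT2 2.0.5, FastQC, Trimmomatic 0.33 and mm39, without saying which tool made the counts. Transcripts were summed by gene and rounded, and 173 of 177 transcripts whose symbols had become date numbers were resolved by identifier. GENCODE annotation of GRCm38 matched 98.6% of transcript identifiers and gave transcript types and lengths for TPM. Builds differ, so coordinates are printed only for RefSeq promoters.

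edgeR 4.0.16 in R 4.3.3 was fitted to all 9 libraries (TMM, filterByExpr, robust quasi-likelihood) and tested on simulated data. Benjamini-Hochberg adjustment ran over 17398 genes at 0.05. The SE of an edgeR log2 fold change was taken as its absolute value divided by the square root of the test's F statistic. The design was planned on gene counts; the sums stand in for them. CPM use TMM library sizes. Members, lists and tests were chosen with earlier results of these data known. Named related genes are up to 4 per list with the smallest p in PG9VN against WT, and the 3 nearest profiles per member among genes of at least 1 CPM. The mean log2 levels of T and NK cell markers used a pseudocount of 0.1 CPM. Log2 CPM of members, microglia markers and nearest profiles used a prior count of 1. Replicates were numbered in accession order. Alternatives were DESeq2 1.42.0, limma-voom (limma 3.58.1), other size factors, no filter, other sets of libraries and other sums over transcripts or copies. Some genes of these lists are not reported here.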

Additional observations from a re-analysis of the deposited data

How the results depend on the processing

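No paired analysis was possible because the labels give the mice no replicate numbers shared between genotypes. No member's log2 fold change changed direction under the alternatives run. Cd47 in PG9VN against PG9V, at -0.03 and not called, ran from -0.10 to 0.05 over the fits that left out 1 library. Over the members' log2 fold changes, 312 values under alternatives kept their side of the threshold, 38 no longer passed and 4 newly passed (Cd300a in PG9V against WT by DESeq2 and without PG9VN replicate 2 or PG9V replicate 1; Sirpa in PG9VN against PG9V by DESeq2). DESeq2 called 31 related genes in PG9V against WT in place of 20. With only libraries that have Y-linked counts, 3 members and 5 related genes were called in PG9V against WT, and 3 members and 14 related genes in PG9VN against PG9V. Fitting only the 2 genotypes compared gave 9 related genes in PG9VN against PG9V in place of 25. The cause was not tested in these cases, though fewer libraries entered each fit but the first. Leaving out 1 library at a time gave 6 to 7 members and 38 to 43 related genes in PG9VN against WT, 3 to 6 members and 5 to 29 related genes in PG9V against WT, and 0 to 6 members and 1 to 26 related genes in PG9VN against PG9V. For the most abundant transcript alone, Pirb did not pass in PG9V against WT or PG9VN against PG9V, nor Cd300lf in PG9V against WT (0.98), nor Cd300a in PG9VN against PG9V (1.32). Summing Sirpa with the Sirpb1 genes moved no call. Sums with near-identical copies beyond Pira2, and the fit without transcripts that span both gp49 genes, were chosen after seeing the data. The 9 to 11 WT counts of Lilr4b limit the precision of its fold changes.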
